A study of Mus musculus with 32 samples.

Results

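Ribosomal protein pseudogenes were examined in RNA-seq data of the mouse vomeronasal organ (VNO), the organ that detects pheromones. A gene was included if its symbol starts with Rpl or Rps and holds -ps, its listed biotype names a pseudogene, and at least 50 reads fell on it over all 32 libraries. A read here is a uniquely placed read pair, and Rps2-ps13 was left out by the rule. Of 49671 genes listed, 261 had such a name and biotype, and 54 of these reached the limit. Among the 207 below it, 20 had no read, 118 had 1 to 9 reads and 69 had 10 to 49. The nearest copies below the limit were Rps27a-ps1 with 48 reads, and Rpl36-ps2 and Rpl9-ps5 with 47 each. The nearest above it were Rpl36a-ps1 with 50 reads, and Rpl9-ps7 and Rps6-ps3 with 52 each. The members were thus chosen by their summed reads, which are the same reads whose strain differences are given here, and 14 members held fewer than 50 reads outside the strain in which they were highest.

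The libraries came from VNO epithelia of individual mice aged 42 days of the strains C57/BL6 (B6), 129S6/SVEV (129), SJL/J (SJL) and SWR/J (SWR), with 4 females and 4 males of each strain. The labels name no treatment or transgene in any group. Total RNA was depleted of ribosomal RNA, and the design compares the 4 strains and the sexes. Reads of every strain were placed on the mm10 reference genome, which was built from a C57BL/6J mouse.

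Between 5106398 and 18640871 reads fell on genes per library. Omp, a marker of mature sensory neurons, had 7871 to 30585 reads per library. Of the vomeronasal neuron markers, Vmn2r1 had 1228 to 5736 reads and Xntrpc 321 to 1822, so that both were read in every library. The summed normalized count of 6 vomeronasal neuron markers was 25615 to 31412 in B6 and 29994 to 42428 in the other strains. Genes of families that the VNO should not use (keratin-associated, defensin, placental, and germline or early embryo families, 240 genes) took 0.383 to 1.81 rpm (reads scaled to a fixed total on genes) for 129, 1.18 to 30.7 for B6, 2.39 to 9.89 for SJL and 0.595 to 14.3 for SWR. In whole tissue, fewer cells of a type and less RNA per cell cannot be told apart.

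Ribosomes are built from ribosomal RNA and a set of ribosomal proteins, of which the Rpl genes encode those of the large subunit and the Rps genes those of the small subunit. The mRNAs of these genes are abundant, and many have been copied back into the genome by the reverse transcriptase of mobile elements. Such a processed pseudogene lacks the introns and the promoter of its parent gene, gathers mutations, and can still be transcribed if it lies beside or inside an active gene.

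The copies on which the strain differences turned lie apart from their parents, and most differ from them at few bases, so some of their sequences are shown first. Rps24-ps3 lies at chrX:79195047-79195448 on the plus strand (GRCm38, a single exon) and is shown from base 151 to base 402, its end, as is the coding sequence of Rps24, while the parent gene Rps24 spans chr14:24487125-24496959. The 3 Rps15a copies that were called between strains lie at chr11:6172644-6173036 (Rps15a-ps6, in an intron of Nudcd3), chr2:152185291-152185682 (Rps15a-ps7) and chr4:53791070-53791456 (Rps15a-ps8), all on the minus strand, and Rps15a itself at chr7:118104372-118116188, and the first 300 bases of each are shown. Rpl34-ps1 lies at chr6:71124610-71124963 on the plus strand and is shown from base 101 to its end at base 354. For Rps13-ps1 and Rpl3-ps1, a stretch of 200 bases that holds a difference from the parent is given, at chr8:87047959-87048158 and chrX:13203258-13203457, both on the plus strand. Sequences are those of the GENCODE M21 transcripts, 5′ to 3′, with the coding sequence printed for both parents. Capitals mark bases at which a copy differs from the coding sequence of its parent.
Rps24: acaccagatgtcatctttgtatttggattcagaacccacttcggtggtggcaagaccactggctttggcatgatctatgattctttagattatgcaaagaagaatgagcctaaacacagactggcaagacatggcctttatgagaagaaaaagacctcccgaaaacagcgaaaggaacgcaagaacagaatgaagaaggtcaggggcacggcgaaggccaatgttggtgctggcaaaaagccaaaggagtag
Rps24-ps3: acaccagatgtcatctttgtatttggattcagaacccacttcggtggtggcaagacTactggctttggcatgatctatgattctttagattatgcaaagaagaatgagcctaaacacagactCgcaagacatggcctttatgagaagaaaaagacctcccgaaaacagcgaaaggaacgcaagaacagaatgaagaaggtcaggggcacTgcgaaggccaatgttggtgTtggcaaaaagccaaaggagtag
Rps15a: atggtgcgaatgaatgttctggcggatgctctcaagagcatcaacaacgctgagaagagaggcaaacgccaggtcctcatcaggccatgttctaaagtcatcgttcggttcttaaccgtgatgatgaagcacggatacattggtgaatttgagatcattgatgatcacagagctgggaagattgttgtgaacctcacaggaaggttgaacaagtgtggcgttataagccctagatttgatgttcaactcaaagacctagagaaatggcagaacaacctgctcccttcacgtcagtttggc
Rps15a-ps6: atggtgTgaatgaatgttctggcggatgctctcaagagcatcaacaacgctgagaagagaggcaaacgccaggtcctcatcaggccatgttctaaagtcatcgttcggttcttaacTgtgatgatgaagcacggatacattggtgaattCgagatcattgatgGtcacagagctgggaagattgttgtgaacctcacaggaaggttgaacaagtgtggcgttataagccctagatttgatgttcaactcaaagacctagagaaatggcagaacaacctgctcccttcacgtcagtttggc
Rps15a-ps7: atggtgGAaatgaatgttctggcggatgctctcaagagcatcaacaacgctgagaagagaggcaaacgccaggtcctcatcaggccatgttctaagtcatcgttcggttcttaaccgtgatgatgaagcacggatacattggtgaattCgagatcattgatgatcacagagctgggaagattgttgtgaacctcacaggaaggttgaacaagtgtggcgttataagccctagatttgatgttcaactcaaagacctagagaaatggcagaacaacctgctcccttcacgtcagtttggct
Rps15a-ps8: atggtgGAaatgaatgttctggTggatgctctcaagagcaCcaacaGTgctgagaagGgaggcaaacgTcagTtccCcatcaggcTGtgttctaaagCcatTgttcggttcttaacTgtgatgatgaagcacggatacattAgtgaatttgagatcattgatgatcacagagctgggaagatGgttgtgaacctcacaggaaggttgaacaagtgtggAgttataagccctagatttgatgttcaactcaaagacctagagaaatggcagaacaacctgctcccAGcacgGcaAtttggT
Rpl34-ps1: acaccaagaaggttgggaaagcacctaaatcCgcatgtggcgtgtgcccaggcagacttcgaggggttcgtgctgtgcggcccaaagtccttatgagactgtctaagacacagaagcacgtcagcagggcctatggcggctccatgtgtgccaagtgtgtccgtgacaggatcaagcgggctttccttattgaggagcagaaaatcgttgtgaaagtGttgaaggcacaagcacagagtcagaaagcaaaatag
Rps13-ps1: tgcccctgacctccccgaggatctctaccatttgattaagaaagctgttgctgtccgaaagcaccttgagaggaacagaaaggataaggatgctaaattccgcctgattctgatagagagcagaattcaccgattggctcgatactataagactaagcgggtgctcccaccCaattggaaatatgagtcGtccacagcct
Rpl3-ps1: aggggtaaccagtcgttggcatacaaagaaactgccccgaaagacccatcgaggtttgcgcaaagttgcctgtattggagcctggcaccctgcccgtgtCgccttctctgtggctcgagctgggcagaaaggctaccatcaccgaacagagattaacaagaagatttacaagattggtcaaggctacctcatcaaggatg

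Rps24-ps3 kept the whole reading frame of Rps24 with the substitutions C207T, G273C, G360T and C380T. Each token gives the base of the parent, the position from the A of the start codon, and the base of the copy. Rpl34-ps1 kept its frame with T132C and C318G, and Rps13-ps1 with T411C and A429G. Rpl3-ps1 carried C57A and T786C. Rps15a-ps6 carried C7T, C117T, T150C, A164G and T301C, and Rps15a-ps7 carried C7G, G8A, T150C and C362G beside a gap. T150C was present in 7 of the 8 Rps15a copies compared, all but Rps15a-ps8.

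The 54 members comprised 25 Rpl and 29 Rps copies of 36 parent genes, and 51 had the biotype processed pseudogene and 3 transcribed processed pseudogene. Rps15a had 5 copies, Rpl31 had 4, and Rps6, Rps13 and Rps19 had 3 each, while 26 parents had 1. In GENCODE M21, 53 members were found (all but Rpl31-ps12), on 19 chromosomes, and 49 of them had a single exon. Identity to the parent coding sequence ranged from 83.4% for Rps18-ps2 to 100%, with a median of 98.9%, against a median of 96.3% for the 198 copies below the read limit that could be aligned. The frame was intact in 23 members. There were 11 members inside an intron of a gene on the same strand and 1 in such an exon.

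Reads were concentrated on few copies. The 54 members held 36979 reads in all, and the 9 members with more than 1000 reads held 77.1% of these. The median member had 158 reads over the 32 libraries and the highest, Rps24-ps3, had 6413. Between 43 and 53 of the 54 members had a read in any 1 library.

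**Figure D1:**
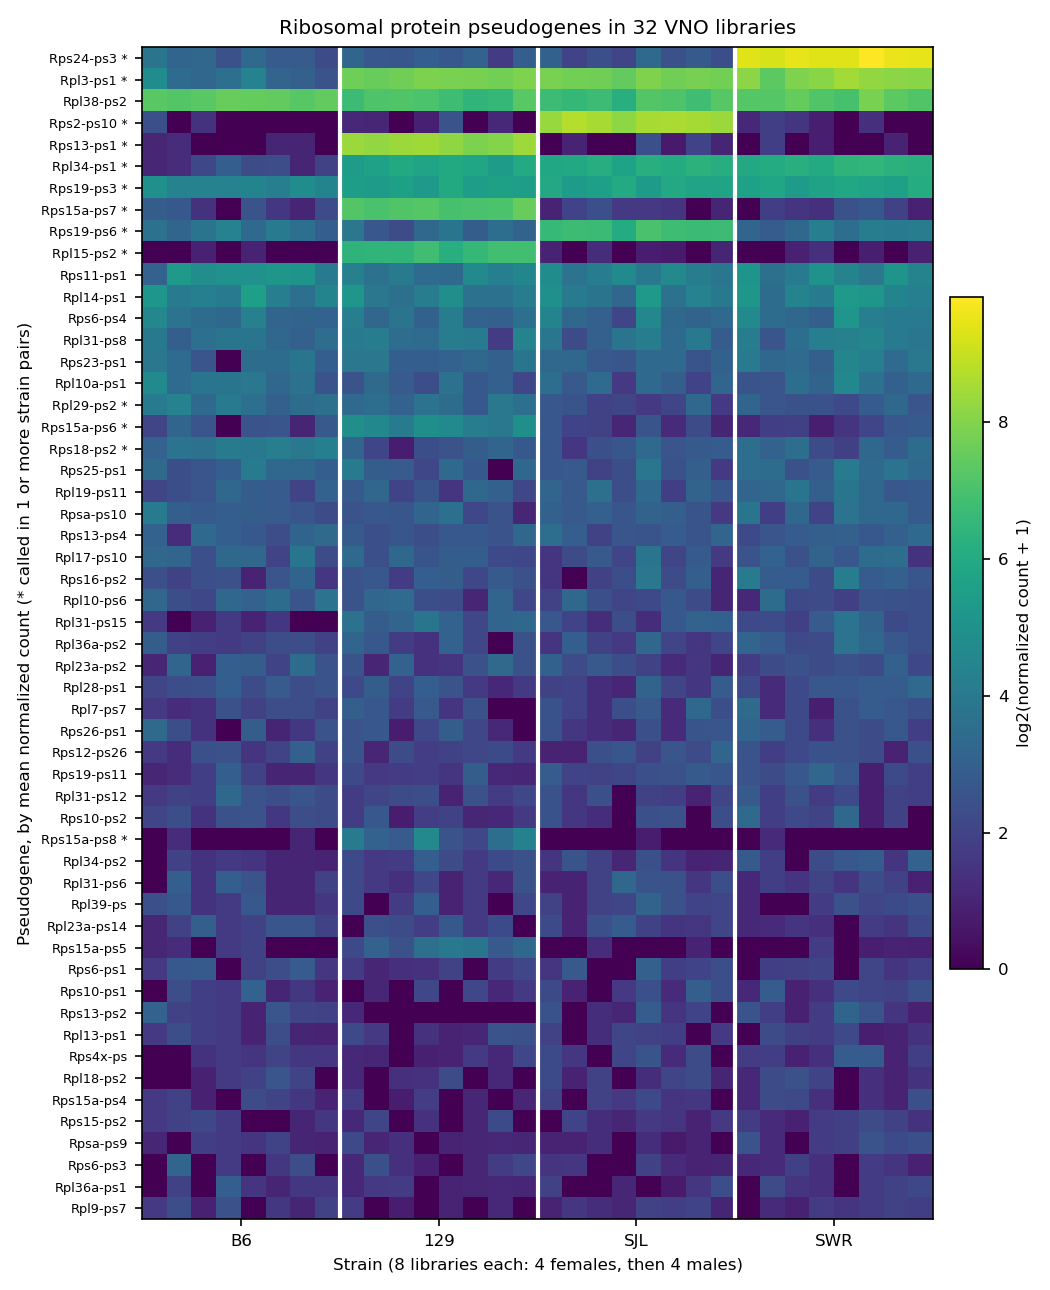
Colour gives log2(normalized count + 1) of the 54 pseudogenes (vertical axis, ordered by mean normalized count) in the 32 libraries (horizontal axis, by strain, 4 females then 4 males); a star marks the 13 copies called in at least 1 strain pair. Of the 10 highest copies, 1 is bright in SWR only (Rps24-ps3), 3 in 129 only, 2 in SJL only, and Rpl3-ps1 and Rpl34-ps1 are dark in B6 only.

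Summed over the 54 copies, B6 had the fewest pseudogene reads in relation to the ribosomal protein genes. The lowest, median and highest share among the 8 B6 libraries was 0.184, 0.217 and 0.259% of the reads on the 87 ribosomal protein genes. In 129 it was 0.643, 0.680 and 0.753%. In SJL the share was 0.607, 0.678 and 0.752%, and in SWR it was 0.707, 0.735 and 0.787%. No B6 library reached the lowest library of another strain, and the other 3 strains overlapped. The number of members with a read did not follow this order, at 44 to 50 in B6 and 43 to 53 in SWR. The sum holds copies that were read almost only in a strain other than B6. Rps24-ps3 had 6262 reads in SWR and 151 in the other strains. The same values were 3165 in SJL and 23 for Rps2-ps10, 2481 in 129 and 20 for Rps13-ps1, and 768 in 129 and 12 for Rpl15-ps2. These last 3 had fewer than 50 reads outside that strain. By mean normalized count B6 was highest in 16 members, 129 in 8, SJL in 7 and SWR in 23. The share without the called copies was not computed. The ribosomal protein genes themselves took a median of 1.94% of all reads in B6, 1.78% in SWR, 1.502% in SJL and 1.49% in 129.

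**Figure D2:**
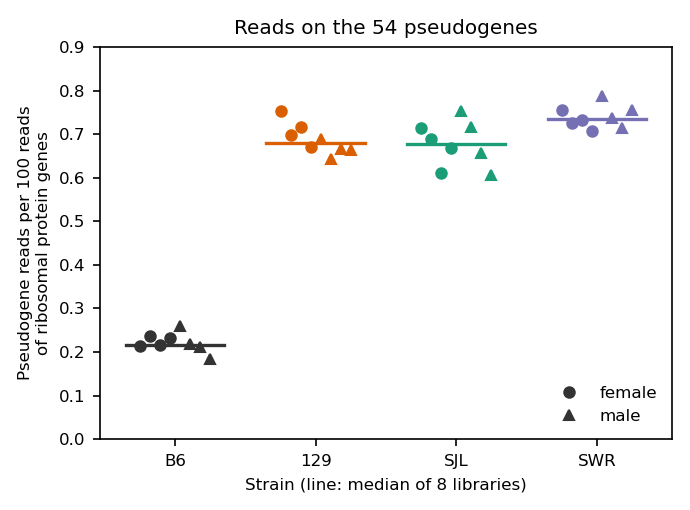
Each point is a library (circles female, triangles male) and gives the reads on the 54 pseudogenes per 100 reads on the 87 ribosomal protein genes; lines are medians of 8 libraries. All B6 libraries lie between 0.184 and 0.259, and all others between 0.607 and 0.787.

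Strain pairs were compared in 1 fit of all 32 libraries, and a gene was called if its fold change was above 2 and its false discovery rate (FDR) under 0.05 in edgeR's quasi-likelihood test. The low-count filter was passed by 22 of the 54 members, some only through the strain in which they were high, and by 18382 genes in all. At least 1 of the 6 strain pairs was called for 13 of the 22 members, while 19.8% of all genes tested were called. Among the 398 tested genes with the biotype processed pseudogene 52.0% were called, beside 59.1% of the members tested. Between B6 and 129, 9 members were called, against a background of 11.1% of genes. Of these, 8 were higher in 129, where the background of that direction was 2.4%, and 1 was higher in B6 (8.72%). Between SJL and 129, 8 members were called (background 8.38%), with 2 higher in SJL (5.61%) and 6 higher in 129 (2.76%). Between SWR and 129, 6 were called (7.73%), with 1 higher in SWR (4.62%) and 5 higher in 129 (3.11%). Between SJL and B6, 7 were called (7.99%), with 5 higher in SJL (2.67%) and 2 higher in B6 (5.33%). Between SWR and B6, 5 were called (8.05%), with 4 higher in SWR (2.52%) and 1 higher in B6 (5.53%). Between SWR and SJL, 3 were called (4.5%), with 1 higher in SWR (2.19%) and 2 higher in SJL (2.31%). The 398 tested processed pseudogenes were called as higher in 129 than in B6 in 20.4%, higher in SJL than in B6 in 20.1%, higher in SWR than in B6 in 22.9%, and lower in SJL and in SWR than in 129 in 10.3% and 6.53%.

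For 8 of the 22 tested members, every library of the highest strain lay above every library of the other 3 strains. This held for 5.02% of all genes tested. Among the 8, Rps13-ps1, Rps2-ps10, Rpl15-ps2 and Rps15a-ps8 reached the read limit for members only through their highest strain. The low-count filter of the test also favours copies that are high in 1 strain. Outside that strain, Rps15a-ps7 and Rps15a-ps6 had at most 7 reads in any library, and Rps24-ps3 at most 13. The choice of these copies thus favours such a gap, so the members and all genes cannot be compared directly here. The share among the tested processed pseudogenes was not computed. For 3 members every library of the lowest strain lay below all others, which held for 4.81% of genes. The 14 copies named here are the 10 with the highest mean normalized count and all 13 that were called.

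**Figure D3:**
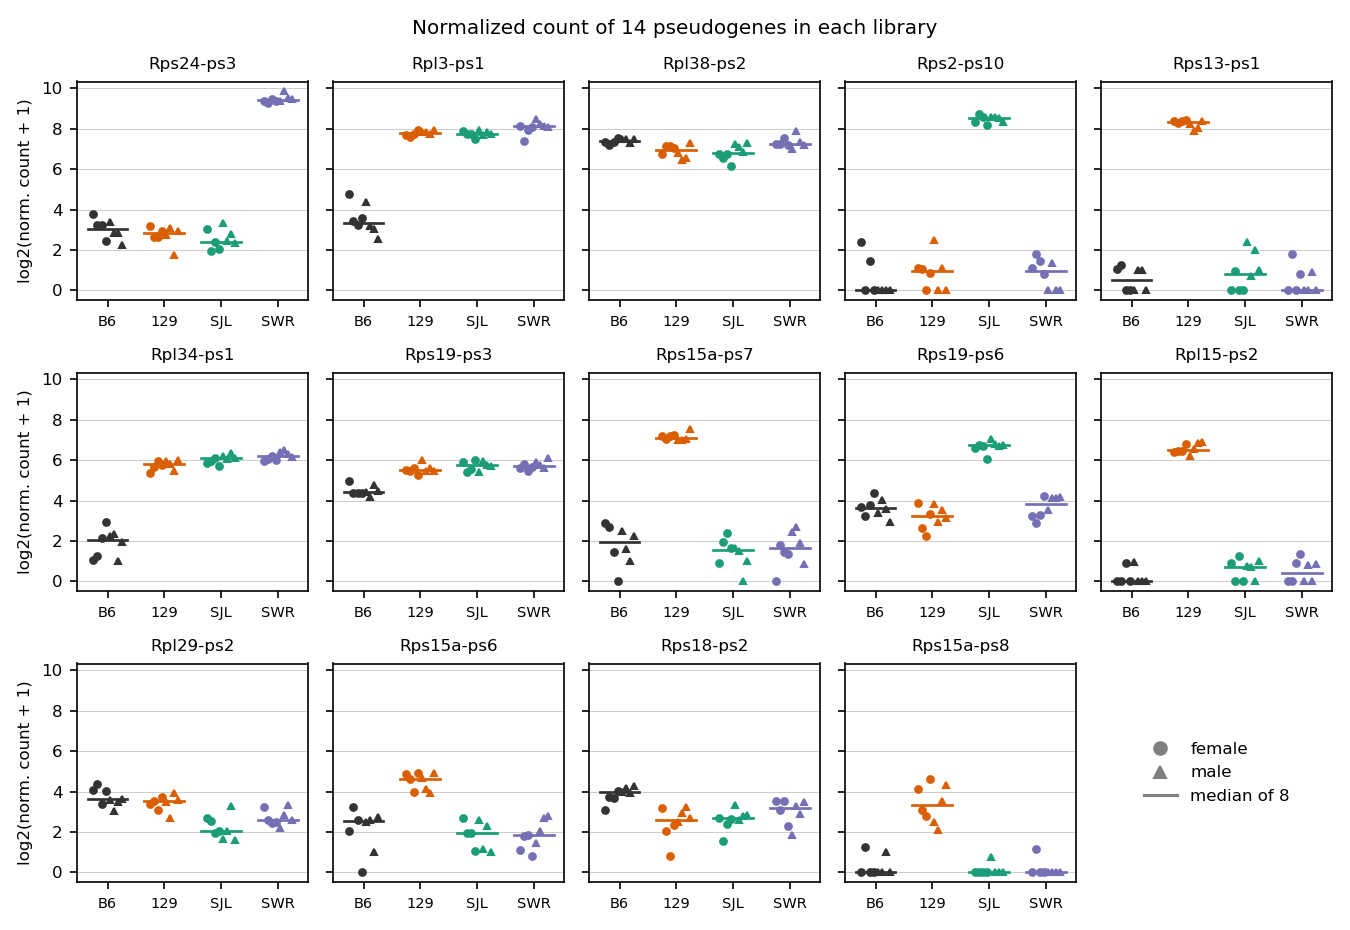
Each panel shows 1 of the 14 named pseudogenes, with log2(normalized count + 1) of every library on the vertical axis and the strain on the horizontal axis (circles female, triangles male, line the median of 8). Rps24-ps3 is high in SWR only, Rps2-ps10 and Rps19-ps6 in SJL only, 5 copies in 129 only, and Rpl3-ps1, Rpl34-ps1 and Rps19-ps3 are lowest in B6, while Rpl38-ps2 overlaps between all strains.

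The copy high in SWR alone was Rps24-ps3, a copy of Rps24, which encodes a small subunit protein that is mutated in some families with Diamond-Blackfan anemia. Its lowest, median and highest normalized count in SWR was 608, 683 and 916. The same values were 3.81, 7.22 and 12.8 for B6, 2.38, 6.10 and 8.14 for 129, and 2.90, 4.32 and 9.18 for SJL. All 8 SWR libraries lay above the other 24 libraries, and the other strains overlapped. The LFC (log2 fold change) was 6.85 ± 0.14 (SE) against 129, 6.52 ± 0.14 against B6 and 7.02 ± 0.14 against SJL, with an FDR of at most 4.19e-29 (edgeR). As folds of SWR, the 95% counting intervals were 89.7 to 161 over 129, 71.7 to 123 over B6 and 99.3 to 180 over SJL. In SWR, the count of the copy was 25.8 to 28.8% of that of Rps24, and in the other strains at most 0.288%.

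Rps2-ps10 and Rps19-ps6 were high in SJL alone. Rps2 and Rps19 both encode small subunit proteins, and Rps19 is the gene most often mutated in Diamond-Blackfan anemia. Rps2-ps10, on the strand opposite to Pde6a, had normalized counts of 288, 372 and 427 (lowest, median, highest) in SJL. In the other 24 libraries it had at most 5 reads, and no read was found in 6 B6, 3 129 and 3 SWR libraries. The LFC was 8.18 ± 0.29 (SE) for SJL against 129 and 8.58 ± 0.31 against B6, and -8.44 ± 0.30 for SWR against SJL (FDR at most 5.13e-22, edgeR). These SE are too narrow for so few reads. As folds of SJL, the 95% counting intervals were 169 to 703 over 129, 202 to 1201 over B6 and 199 to 908.5 over SWR. In SJL its count was 24.3 to 32.3% of that of Rps2.

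Rps19-ps6 lies at chr12:110898114-110898551 in an intron of Tecpr2, on the same strand. Its lowest, median and highest normalized count was 65.3, 105 and 130 in SJL, 6.68, 11.4 and 19.7 in B6, 3.75, 8.41 and 13.95 in 129, and 6.34, 13.4 and 17.7 in SWR. No SJL library overlapped another strain, and the LFC was 3.54 ± 0.21 (SE) against 129, 3.14 ± 0.21 against B6 and -2.98 ± 0.20 for SWR against SJL (FDR at most 3.1e-14, edgeR). Tecpr2, an autophagy gene, changed less, with an LFC of -0.0013 for SJL against 129, 0.30 against B6 and -0.16 for SWR against SJL, and was called in none of these. Genes listed beforehand as markers of olfactory sensory neurons of the main epithelium were Gnal, Cnga2, Cnga4, Adcy3 and Stoml3. They summed to 1827 to 2331 normalized counts in SJL and 1199 to 1934 in the other strains. Of the 5, Cnga4 and Adcy3, which made up most of the sum, had their highest mean in SJL (1071 and 1040 normalized counts). The other 3 had theirs in B6, with Gnal at 57.3 against 21.2 in SJL, Cnga2 at 24.1 against 2.29 and Stoml3 at 45.9 against 9.07, and Cnga2 was at 0 in 7 libraries. Their part in the SJL results was not tested.

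The largest group of called copies was high in 129 alone, with Rps13-ps1, Rpl15-ps2 and 3 copies of Rps15a. Rps13 encodes a small subunit protein and Rpl15 a large subunit protein. Rps13-ps1 had normalized counts of 237, 316 and 347 (lowest, median, highest) in 129. In the other 24 libraries it had at most 6 reads, and no read in 4 B6, 3 SJL and 5 SWR libraries. The LFC against 129 was -8.83 ± 0.31 (SE) for B6, -7.67 ± 0.27 for SJL and -9.04 ± 0.31 for SWR (FDR at most 2.03e-22, edgeR). These SE are too narrow for so few reads. As folds of 129, the 95% counting intervals were 219 to 2060 over B6, 127 to 431 over SJL and 260 to 2445 over SWR. Its count in 129 was 24.9 to 34.7% of that of Rps13.

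Rpl15-ps2, at chr9:72060937-72061549 on the strand opposite to Tcf12, had normalized counts of 73.0, 90.2 and 116 in 129. The other 24 libraries had at most 2 reads each, and all B6 libraries together had 2, all SJL libraries 5 and all SWR libraries 5. The mean in 129 was 429-fold that in B6, with a 95% counting interval of 97.7 to 2913, 163-fold that in SJL (71.9 to 517) and 189-fold that in SWR (71.8 to 516). All 3 pairs with 129 were called, with an FDR of at most 1.12e-19 (edgeR).

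Rps15a encodes a small subunit protein, and its copies Rps15a-ps7, Rps15a-ps6 and Rps15a-ps8 lie on different chromosomes. Rps15a-ps7 had normalized counts of 125.4, 137 and 185 in 129, and at most 6.40 in any library of B6, 4.26 of SJL and 5.49 of SWR. Rps15a-ps6 had 14.3, 23.9 and 28.8 for 129, and at most 8.33 for B6, 5.45 for SJL and 5.92 for SWR. For both copies the 129 libraries stood above all others. The LFC against 129 was -5.40, -6.19 and -5.77 for Rps15a-ps7 (B6, SJL, SWR), with SE of 0.27, 0.29 and 0.28 and an FDR of at most 8.86e-18 (edgeR). For Rps15a-ps6 it was -2.35, -2.88 and -2.88, with SE of 0.33, 0.34 and 0.34 and an FDR of at most 4e-07 (edgeR). Nudcd3, the gene whose intron holds Rps15a-ps6, had an LFC of -0.31 for B6, -0.031 for SJL and 0.025 for SWR against 129, and was called in none.

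Rps15a-ps8 was the copy with the fewest reads among those called, 96 in all. Its normalized count in 129 was 3.28, 9.09 and 23.9 (lowest, median, highest). B6 held 2 reads in all, SJL 1 and SWR 1. The mean of strain 129 was 37.9-fold that of B6 (95% counting interval 11.6 to 347), 129-fold that of SJL (17.9 to 3948) and 71.8-fold that of SWR (17.9 to 3940), and all 3 pairs were called (FDR at most 3.32e-08, edgeR). No 129 library overlapped another strain. The background of families foreign to the VNO had its lowest median in 129, where it was at most 1.81 rpm, against at least 2.39 in SJL. With it as a covariate every call of these 5 copies was kept. As the background goes with the strain, this fit cannot tell the 2 apart.

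Rpl3-ps1, Rpl34-ps1 and Rps19-ps3 were lower in B6 than in each of the other strains. Rpl3 encodes a large subunit protein near the peptidyl transferase center, and Rpl34 another protein of the large subunit. Rpl3-ps1, at chrX:13202571-13203780, had normalized counts of 4.77, 9.12 and 26.6 (lowest, median, highest) in B6. In 129 it had 189, 219 and 241, in SJL 177, 212 and 246, and in SWR 165, 276 and 357. No B6 library reached the others. The LFC was -4.19 ± 0.18 (SE) for B6 against 129, 4.16 ± 0.18 for SJL against B6 and 4.49 ± 0.18 for SWR against B6 (FDR at most 6.73e-20, edgeR).

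Rpl34-ps1 had 1.01, 3.14 and 6.58 normalized counts for B6, 40.7, 54.2 and 64.2 for 129, 51.6, 66.9 and 79.8 for SJL, and 60.4, 71.8 and 88.7 for SWR. B6 did not overlap the other strains, and the LFC was -4.20, 4.47 and 4.62 in the same order of pairs, with SE of 0.19, 0.18 and 0.18 (FDR at most 1.6e-19, edgeR). Rps19-ps3, at chr4:147821777-147822202, showed a smaller difference without overlap. It had 17.3, 20.1 and 29.8 in B6 and between 37.9 and 66.8 in every other library. The LFC was -1.08 ± 0.13 (SE) for B6 against 129, 1.25 ± 0.13 for SJL against B6 and 1.26 ± 0.13 for SWR against B6 (FDR at most 3.36e-08, edgeR). With the background of foreign families as a covariate the first of these was -0.95 and no longer called, and in a test against a fold change of 2 (glmTreat) none of the 3 was called. The vomeronasal neuron markers were also lowest in B6, with 5 of the 6 at their lowest mean there (all but Vmn2r1) and none at 0 in any library, and their part in the B6 results was not tested.

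Rps18-ps2 and Rpl29-ps2 had low counts and smaller differences, with overlapping groups. Rps18 encodes a small subunit protein and Rpl29 a large subunit protein. Rps18-ps2, the member least like its parent, had a lowest, median and highest normalized count of 7.46, 14.6 and 18.1 for B6, 0.749, 5.11 and 8.34 for 129, 1.93, 5.36 and 9.18 for SJL, and 2.66, 8.12 and 10.7 for SWR. It was higher in B6 than in 129 (LFC 1.45 ± 0.30 SE, FDR 0.000118, edgeR) and in SJL (LFC -1.33 ± 0.29 for SJL against B6, FDR 0.000309). With the background covariate the first was 1.11 with an FDR of 0.0529 (edgeR). Rpl29-ps2, annotated with 4 exons at chr13:4609334-4615025, had 7.12, 11.3 and 19.4 for B6, 5.46, 10.5 and 14.3 for 129, 2.09, 3.14 and 8.87 for SJL, and 3.54, 5.07 and 8.99 for SWR. The LFC was -1.30 ± 0.28 (SE) for SJL against 129, -1.57 ± 0.28 for SJL against B6 and -1.07 ± 0.26 for SWR against B6, each called by edgeR (FDR at most 0.00133). Without B6 female replicate 2 the last was -0.97, and without SWR male replicate 1 it was -0.996, so that either library decided that call. In the test against a fold change of 2, no call of these copies remained.

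Of the 22 tested members, 9 were called in no pair. Rpl38-ps2 was the highest of these, with a lowest, median and highest normalized count of 147, 169 and 187 for B6, 86.3, 122 and 157 for 129, 70.6, 110 and 154 for SJL, and 124.9, 151 and 233 for SWR. Rpl38 encodes a large subunit protein known in the mouse for its part in patterning the skeleton. The strains overlapped, and the widest LFC of Rpl38-ps2 was -0.53 ± 0.13 (SE) for SJL against B6 (FDR 0.00132, edgeR), under the fold limit. The gene model of 213 bases is identical to the Rpl38 coding sequence, while the exons of Rpl38 cover 542 bases. Per kilobase of these unlike lengths the copy had 545 to 790 mean normalized counts in the 4 strains, against 2292 to 3064 for Rpl38. Only uniquely placed read pairs were counted and the sequence of the copy also occurs in Rpl38, so these levels are not like measures of both genes.

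The 13 called copies were between 83.4 and 99.8% identical to their parents, and none was identical. Of 9 members identical to the parent coding sequence, 5 were tested and 0 were called by edgeR, with 3 at an unadjusted p under 0.05 in some pair and a largest absolute LFC of 0.92. DESeq2 called 1 of the 9, Rps13-ps2, as did edgeR without the low-count filter. The count of 0 also depended on single libraries. Rpl10a-ps1, identical to its parent, was called for B6 against 129 without 129 female replicate 2 (LFC 1.02), 129 male replicate 1 (1.11) or B6 male replicate 4 (1.06). Rps16-ps2, also identical and not tested with all libraries, was called for SWR against B6 without any 1 of 4 libraries (B6 male replicate 3, SJL female replicate 2, SWR female replicate 4 or SWR male replicate 4), with an LFC of 1.04 to 1.26. Of 44 members that differed from the parent, 17 were tested and 13 called. Only uniquely placed reads were counted by the authors. In 9 members every window as long as a read occurred unchanged in the parent, and in 13 members none did. For Rps24-ps3 such windows made up 29.5% and for Rpl3-ps1 83.1%. The effect of these shared windows on the counts was not tested.

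**Figure D4:**
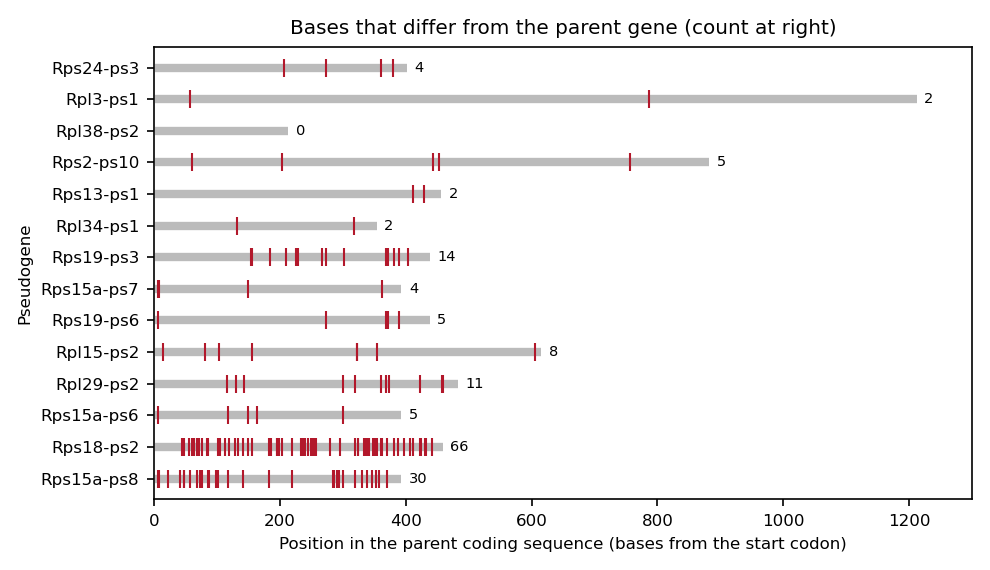
Each grey bar is the parent coding sequence of 1 of the 14 named pseudogenes, drawn to scale in bases from the start codon, and each red mark is a base at which the copy differs; the number at the right counts the marks. The counts run from 0 in Rpl38-ps2 to 66 in Rps18-ps2, and 9 of the 14 copies differ at 5 bases or fewer.

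In the pairs in which a copy was called, the median difference of the parents was smaller than that of the copies. The 13 called copies had 38 called pairs, in which the median absolute LFC was 4.55 for the copy and 0.42 for the parent. A fold change above 2 was required of the copy and not of the parent, so this choice of pairs favours a larger median of the copies. The called Rps15a copies share the same parent values, as do Rps19-ps3 and Rps19-ps6. The sign was opposite in 31 pairs and the same in 7. Of the 83 ribosomal protein genes tested, 75 were higher in B6 than in 129 and 74 higher in SWR than in 129. Between SWR and SJL 80 were higher in SWR, and 83 were lower in SJL than in B6. A sign opposite to a copy high in 129 or SJL was thus also that of most ribosomal protein genes in these pairs. For SJL against 129, 65 were lower in SJL and 18 higher. In that pair a sign opposite to a copy high in 129 was that of the smaller number of these genes. For SWR against B6, 48 were higher in SWR and 35 lower. The sign opposite to Rps24-ps3, high in SWR, was thus that of the smaller number in each pair with SWR. Pairs of a copy share the libraries of its high or low strain, so they are not independent of each other. The parent itself was called in 6 of the 38 pairs, with the opposite sign in 3 and the same sign in 3.

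**Figure D5:**
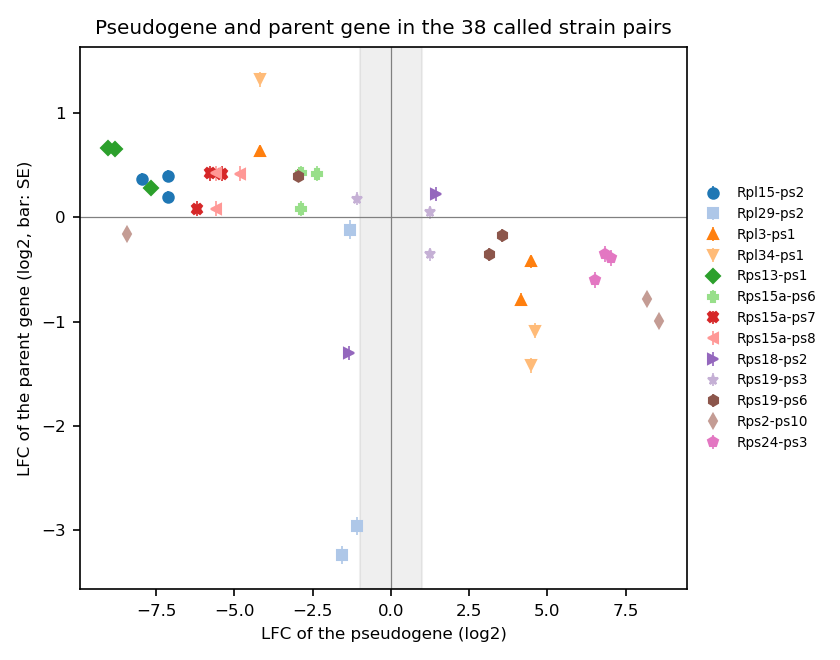
Each symbol is 1 of the 38 called strain pairs of a pseudogene, with the LFC of the pseudogene on the horizontal axis and that of its parent gene (bar, SE) on the vertical axis; the grey band marks LFC within 1. Symbols lie mostly at upper left and lower right, and the parents of Rpl29-ps2 reach -3.24.

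The parents called with the opposite sign were all Rpl34. Its mean normalized count was 1564 for B6, 622 for 129, 587 for SJL and 739 for SWR, so that Rpl34 was highest where Rpl34-ps1 was lowest. The LFC of Rpl34 was 1.33 ± 0.07 (SE) for B6 against 129, -1.42 ± 0.07 for SJL against B6 and -1.09 ± 0.07 for SWR against B6 (FDR at most 1.01e-14, edgeR). The spread between the highest and lowest strain mean was 2.67-fold for Rpl34 alone and 2.40-fold for its sum with Rpl34-ps1. For Rps24 the parent was lowest in SWR, at 2622 against 3325 to 3939 in the other strains, and the sum with Rps24-ps3 was 3329 in SWR, 3331 in 129, 3422 in SJL and 3947 in B6. The spread between strain means was 1.502-fold for Rps24 alone and 1.19-fold for the sum. Rps13 was lowest in 129, at 1017 against 1245 to 1630. The sum with Rps13-ps1 was 1322 in 129, 1246 in SJL, 1604 in B6 and 1630 in SWR. These sums hold only uniquely placed reads. Whether reads of a parent were counted on its copy in some strain was not tested.

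The mean normalized count of Rps2 was 2189 for 129, 2518 for B6, 1272 for SJL and 1143 for SWR. Its lowest mean was thus in SWR, where Rps2-ps10 had 8 reads in all libraries together. The same sign in copy and parent was called for Rpl29-ps2, whose parent Rpl29 had an LFC of -3.24 ± 0.09 (SE) for SJL against B6 and -2.96 ± 0.09 for SWR against B6, and for Rps18-ps2, whose parent Rps18 had -1.30 ± 0.07 for SJL against B6 (FDR at most 1.75e-17, edgeR).

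Of the 83 ribosomal protein genes that were tested, 10 were called in at least 1 pair, against 19.8% of all genes. Between B6 and 129, 5 were called, all higher in B6. For SJL against B6, 7 were called and all were lower in SJL, and all 83 had a negative LFC with a median of -0.31, against -0.023 for all genes tested. For SWR against B6 the median was 0.012 and 4 were called. Rpl26, a large subunit protein gene, was lower in SJL and SWR than in B6 and 129 (LFC -3.01 to -3.70), and Rps3a1, of the small subunit, was lower in 129 than in every other strain (LFC 1.69 to 2.04, edgeR). Neither has a copy among the 54 members.

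The other 32 members did not pass the low-count filter and had 50 to 216 reads each. Most had a few normalized counts in every strain. Of these, 3 were chosen after their values were seen, because edgeR without the filter and DESeq2 both called them in 3 pairs each. Rps15a-ps5, another Rps15a copy high in 129, had 71 of its 85 reads there and 6 for B6, 2 for SJL and 6 for SWR. Its normalized count was 3.49 to 15.0 in 129 and at most 2.79 in any other library. The LFC without the filter was -3.25, -4.66 and -3.48 for B6, SJL and SWR against 129 (FDR at most 1.65e-05, edgeR). The remaining Rps15a member, Rps15a-ps4, had its lowest mean in 129 (0.968).

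Rps13-ps2, identical to Rps13 over 99.3% of the coding sequence, was low where Rps13-ps1 was high. It had 1 read over the 8 libraries of 129, 25 in B6, 22 in SJL and 28 in SWR. The LFC without the filter was 3.81 for B6, 3.33 for SJL and 3.74 for SWR against 129 (FDR at most 0.00254, edgeR). Rpl31-ps15 had 7 reads for B6, 69 for 129, 40 for SJL and 50 for SWR. Its LFC without the filter was -3.04 for B6 against 129, 2.14 for SJL against B6 and 2.44 for SWR against B6 (FDR at most 0.00252, edgeR). At these depths single reads moved the value of a library.

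No member was called between males and females. Of 22 tested members, 0 were called (fold change above 2, FDR under 0.01), where the background was 0.0381% of genes, and 1 had an unadjusted p under 0.05. This was Rpl34-ps1, with an LFC of 0.23 for male against female (FDR 0.458, edgeR). The sex difference depended on strain in 0 members (background 0.0163%), with 3 at an unadjusted p under 0.05 and a smallest FDR of 0.487 for Rps2-ps10 (edgeR). DESeq2 also called 0 in both tests. The largest absolute LFC between the sexes among the members was 0.48, in Rps15a-ps8. In males 17 of the 22 members had the higher fitted level, with a median LFC of 0.11, beside 82 of the 83 ribosomal protein genes (median 0.11) and 9088 of the 18382 genes tested (median -0.0012), and none of the ribosomal protein genes was called.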

How the data were processed

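The authors sequenced stranded libraries as paired reads of 125 bases, and per the labels' processing notes used bcl2fastq, Trim Galore, STAR on mm10 and DESeq2. The deposited values are raw counts of uniquely placed read pairs per gene and a normalized signal, which is the count divided by a DESeq2 size factor by the authors. Counts of 54 pseudogenes and all other genes were tested with edgeR 4.0.16 (R 4.3.3, TMM scaling, filterByExpr over the 8 strain-by-sex groups, quasi-likelihood test, strain plus sex, all 32 libraries) with Benjamini-Hochberg FDR over all genes tested. SE was the absolute LFC over the square root of F, an approximation that is too small where a strain had few reads. Genes were called at a fold change above 2 with an FDR under 0.05 between strains and under 0.01 between sexes, and the sex-by-strain interaction at an FDR under 0.05. DESeq2 1.42.0 was an alternative, beside DESeq2 size factors in edgeR, no filter, a replicate block, a background covariate, glmTreat, a fold limit of 1.5, a read limit of 200 and leaving out each library. The script was tested on simulated data. Normalized signal was used for levels. Named copies were the 10 highest by mean and all called ones, with any other named after its values were seen. Members and lists were chosen with earlier results of these data known. Counting intervals (95%) cover only the counting error of the reads in the lower strain, with the mean of the higher strain held fixed. GENCODE M21 copies were aligned locally to parent coding sequences with Biopython 1.88 (match 1, mismatch -1, gap -5 and -0.5).

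Libraries are from individual mice. In 48 pairs of libraries of 1 group, counts differed beyond sampling noise (chi-square per degree of freedom 3.01 to 54.2), so each counted as 1 sample. Replicate numbers came from the descriptions and may be lane numbers. All sample columns were used.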

Additional observations from a re-analysis of the deposited data

Results flagged for a closer look

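In 56 groups (14 named copies in 4 strains of 8 libraries), 8 had a highest library whose gap to the next, divided by the range of the group, was above Dixon's 95% critical value. Chance passes this in about 1 in 20 groups of normally distributed values. That rate does not hold for groups near 0, where 1 read beside 0 in the other 7 libraries always passes. Rps24-ps3 had 915.8 normalized counts in SWR male replicate 2, where the next SWR library had 740.9. Rps19-ps3 had 62.7 in 129 male replicate 1 (next 47.65), and Rps15a-ps7 had 184.9 in 129 male replicate 4 (next 149.1). The others rested on few reads in strains where the copy was nearly absent. Rps2-ps10 had 4.679 in 129 male replicate 1 (5 reads, next 1.191) and 4.263 in B6 female replicate 1 (4 reads, next 1.706). Rps13-ps1 had 2.537 in SWR female replicate 2 (2 reads, next 0.8992). Rps15a-ps8 had 0.7063 in SJL male replicate 1 and 1.268 in SWR female replicate 2, which are 1 read each beside 0 in the other 7 libraries.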

How the results depend on the processing

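Of 38 called member and strain pairs, none was lost with DESeq2, with DESeq2 size factors in edgeR or without the low-count filter, and 11, 0 and 11 were gained. With the background covariate 2 were lost. In the glmTreat test against a fold change of 2, 8 were lost, which left 4 members called for SJL against B6 and 3 for SWR against B6. For 1 strain pair of each named copy, 518 alternative LFC values were compared. None of these reversed, and 1 missed the threshold (Rps18-ps2, B6 against 129, with the background covariate). In other pairs, Rps19-ps3 for B6 against 129 missed it with that covariate (LFC -0.95). Rpl29-ps2 for SWR against B6 missed it without B6 female replicate 2 (-0.97) or SWR male replicate 1 (-0.996). Leaving out each library gave 9 to 12 members for B6 against 129, 8 to 10 for SJL against 129, 6 to 7 for SWR against 129, 7 to 9 for SJL against B6, 4 to 7 for SWR against B6, 3 to 4 for SWR against SJL and 13 to 17 in any pair, and 0 for sex and for the interaction. The low-count filter then asks for fewer libraries, so more members are tested. Of the tested members, Rpl10a-ps1 was then called for B6 against 129 (LFC 1.02 to 1.11) without 129 female replicate 2, 129 male replicate 1 or B6 male replicate 4. Rps25-ps1 was called for SWR against SJL without SJL male replicate 1 (LFC 1.03), and Rps13-ps1 for that pair without SWR female replicate 2 (LFC -1.996), where each SWR library had at most 2 reads. Replicate numbers did not pair the samples: 31 of 112 pairs with the same number had a correlation over 0.1, and 6 of 32 libraries correlated best with their own number. The replicate block lost 0 calls and gained 0, leaving 13 members. The filter left out 32 members with up to 216 reads each, which depth limits.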
